A study of Mus musculus with 8 samples.

Results

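Gene expression was compared between cluster 1 and cluster 7, stromal populations of mouse bone marrow that were both sorted as positive for Sca-1, the surface protein encoded by Ly6a. All 10114 of the 49315 annotated genes that reached more than 2 RPKM (reads per kilobase of exon, scaled to the size of the library) and at least 50 counts in at least 1 of the 2 libraries are described, by the log2 ratio of RPKM + 1 in cluster 1 over cluster 7. The series holds 8 RNA-seq libraries, 1 from each of 7 sorted clusters and 1 from input bone marrow. All were made from wild-type C57BL/6J mice at 6 weeks of age by the labels, with no treatment, the methods of the study naming the strain C57BL/6JJcl. The labels give the number of the cluster and not its gate, and the gates stated here were read from the gating plots of the study. By these plots, both clusters were depleted of CD31, CD45 and Ter119. Cluster 1 was then taken as CD24 negative, Sca-1 positive and CD39 positive, and cluster 7 as CD54 negative and Sca-1 positive, without CD24 and Ly-6C. The total count was 24205863 in cluster 1 and 33238133 in cluster 7. Since each population had 1 library, no test was possible and no p-value is given. Intervals in parentheses are 95% exact binomial intervals of the log2 ratio, which cover counting error only and not the variation between animals or sorts.

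Bone marrow stroma holds the mesenchymal cells that make bone, cartilage, tendon, fat and the fibrous coat of vessels, and that nourish blood stem cells. Sca-1, a small protein tied to the outer membrane by a lipid anchor, is used to enrich early mesenchymal progenitors and adventitial fibroblasts from mouse tissue. Neutrophils, the most abundant mature cells of mouse marrow, carry granules filled with proteases and antimicrobial proteins whose messages are made in a fixed order as the cells mature.

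Of the 10114 genes, 339 (3.35%) were more than 2-fold higher in cluster 1 and 553 (5.47%) were more than 2-fold higher in cluster 7, so that 62.0% of the 892 genes that differed were higher in cluster 7. Scaling by total count, which moves the median log2 ratio of all genes from -0.08 to 0.02, gave 473 and 488 genes, of which 49.2% were higher in cluster 1. The levels of the 2 libraries correlated across genes with a Pearson r of 0.932 and a Spearman rho of 0.899 on the log2(RPKM + 1) scale, genes not being independent replicates. At 4-fold, 28 genes were higher in cluster 1 and 75 in cluster 7. By the same rule cluster 7 differed least from cluster 4 (5.66% of genes) and cluster 1 also differed less from cluster 4 (6.22%) than from cluster 7 (8.82%). Of the 21 pairs of sorted libraries, 3 differed by a smaller share than cluster 1 and cluster 7, and these pairs share libraries. A gene listed in 1 of the 2 libraries below 2 RPKM could pass through the other alone, as 564 genes did through cluster 1 and 686 through cluster 7. The genes nearest to the limits were Cryab (2.001-fold) and Rps26 (1.9969-fold) on the side of cluster 1, Pnpla7 (2.001-fold) and Bub1 (1.9993-fold) on the side of cluster 7, and Tfpi (2.0001 RPKM) and Tie1 (1.9997 RPKM) at the filter.

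**Figure D1:**
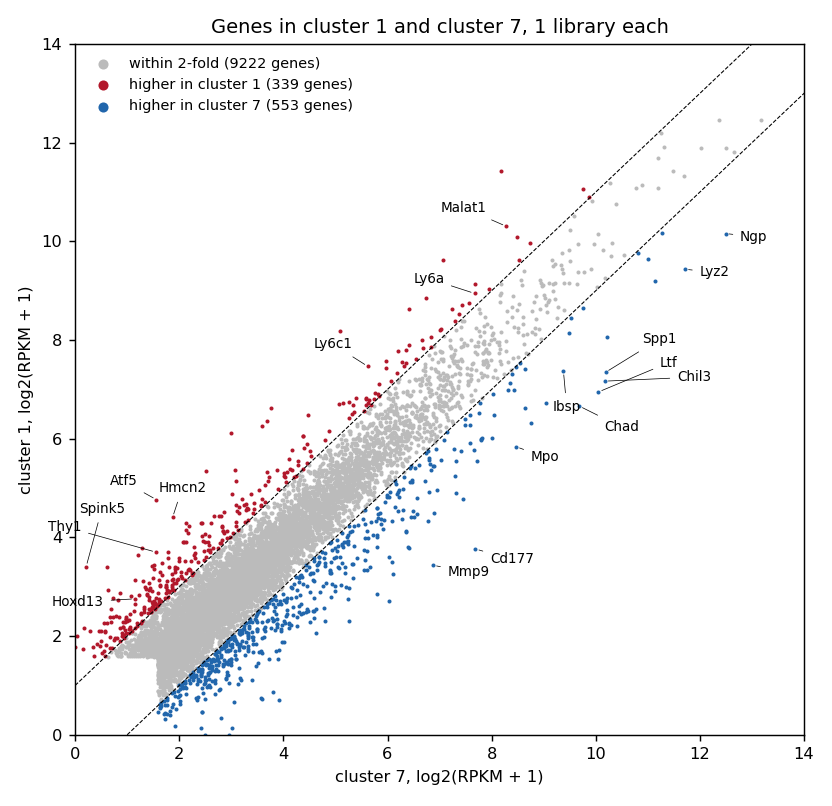
Level of each of the 10114 genes in cluster 7 (x axis) and cluster 1 (y axis) as log2(RPKM + 1), 1 point per gene, with dashed lines at 2-fold. The 339 red genes were higher in cluster 1, led by Atf5 and Spink5, and the 553 blue genes were higher in cluster 7, led by Cd177 and Mmp9.

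The marker of the shared gate was present in both libraries, with 492.1 RPKM of Ly6a in cluster 1 and 202.8 RPKM in cluster 7, a log2 ratio of 1.27 (1.24 to 1.31). Across the other 5 sorted libraries Ly6a ranged from 5.96 RPKM in cluster 6 to 916.9 RPKM in cluster 3, so that cluster 1 stood at place 2 and cluster 7 at place 4 of the 7. Spink5, a serine protease inhibitor best known from skin, had 1333 counts in cluster 1 and 28 counts in cluster 7, or 9.60 and 0.158 RPKM, with a log2 ratio of 3.19 (3.10 to 3.27). No other sorted library had more than 0.222 RPKM of Spink5. Of the 14 keratinocyte genes examined, 1 passed the filter (Krt10, 3.13 and 2.48 RPKM). The defining keratins had 0 and 1 counts (Krt5) and 1 and 3 counts (Krt14) in cluster 1 and cluster 7, 3 of the 14 genes had 0 counts in each library, and the list summed to 5.21 and 4 RPKM. Hoxd13, the last gene of the HoxD series and a factor of the distal limb, had 5.75 RPKM in cluster 1 and 1.22 RPKM in cluster 7, with a log2 ratio of 1.6 (1.41 to 1.79). The other 5 libraries lay between 0.0761 and 1.28 RPKM of Hoxd13, all below cluster 1. By the coordinates of the files (GRCm38), Ly6a lies at chr15:74994877-74998031 on the minus strand, Spink5 at chr18:43963235-44022501 on the plus strand and Hoxd13 at chr2:74668310-74671599 on the plus strand.

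The transcripts of the other sort markers did not follow the gates, as read from the plots, in every case. Entpd1, which encodes CD39, the marker that cluster 1 was gated on, had 7.13 RPKM in cluster 1 and 12.5 RPKM in cluster 7, the highest of the 7 libraries. Icam1, which encodes CD54, for which cluster 7 was gated negative, had 61.7 RPKM in cluster 1 and 134.3 RPKM in cluster 7, and the other libraries ran from 11.2 to 231.2 RPKM. Cd24a had 46.4 RPKM in cluster 1, the lowest of the 7 libraries, and 64.9 RPKM in cluster 7. The other libraries ran from 49.1 RPKM in cluster 3 and 51.8 RPKM in cluster 4 to 164.1 RPKM in cluster 6. Pdgfra, the second marker of the parent population, was alike in both libraries at 23.4 and 23.7 RPKM, with a log2 ratio of -0.02 (-0.06 to 0.03). Il1r2, a decoy receptor of interleukin 1 that neutrophils also make, had 45.6 RPKM in cluster 1 and 159.1 RPKM in cluster 7. Ptprc, which encodes the excluded leukocyte protein CD45, had 2.43 RPKM in cluster 1 and 8.31 RPKM in cluster 7, with a log2 ratio of -1.44 (-1.5 to -1.37). Pecam1, which encodes CD31, had 2.27 and 2.66 RPKM.

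**Figure D2:**
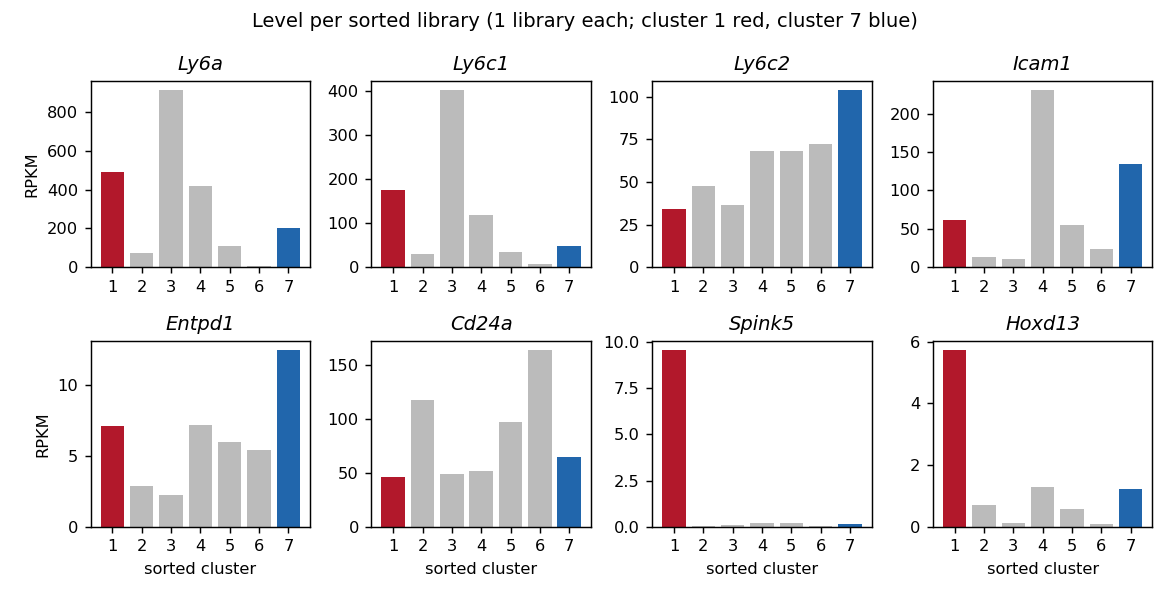
RPKM of the sort markers Ly6a, Ly6c1, Ly6c2, Icam1, Entpd1 and Cd24a and of Spink5 and Hoxd13 in the 7 sorted libraries, 1 bar per library, with cluster 1 in red and cluster 7 in blue. Spink5 and Hoxd13 stand highest in cluster 1, at 9.60 and 5.75 RPKM, while Ly6c2 and Entpd1 stand highest in cluster 7.

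Ly-6C is encoded by a pair of closely related neighbours on chromosome 15, and these differed in opposite directions. Ly6c1, which endothelial and stromal cells make, had 175.9 RPKM in cluster 1 and 48.2 RPKM in cluster 7, with a log2 ratio of 1.85 (1.79 to 1.90). Ly6c2, the form of monocytes and other myeloid cells, had 34.3 RPKM in cluster 1 and 104.0 RPKM in cluster 7, with a log2 ratio of -1.57 (-1.63 to -1.51), the lowest and the highest of the 7 libraries. Of the 13 genes of the Ly6 family examined, 6 passed the filter, 2 of them being more than 2-fold higher in cluster 1 (Ly6a and Ly6c1) and 2 more than 2-fold higher in cluster 7 (Ly6c2 and Ly6g, a neutrophil surface protein), where all genes gave 3.35% and 5.47%. Ly6a2, which lies between Ly6c2 and Ly6g and was picked out after its values were seen, had 37.1 RPKM in cluster 1 and 156.6 RPKM in cluster 7. Reads that fit several of these paralogs may have been divided between them, and how the counting treated such reads is not given in the sources used here, so that the split within the family is uncertain.

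The 150 bases before the RefSeq start of both Ly-6C genes are shown, with those of Elane, Mmp8 and Cd177, neutrophil genes that were higher in cluster 7, each shown because its window holds a match (GRCm38.p6, 5′ to 3′ on the strand of the gene). Capitals mark the letters GAGGAA, as read by ETS factors such as PU.1, TTNNGCAA, as read by C/EBP factors, and TATAAA, each searched on both strands.
Ly6c1 (chr15:75048838-75048987, minus strand): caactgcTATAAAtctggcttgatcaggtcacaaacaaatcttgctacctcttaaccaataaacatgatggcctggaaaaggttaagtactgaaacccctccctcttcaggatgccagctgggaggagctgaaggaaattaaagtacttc
Ly6c2 (chr15:75111972-75112121, minus strand): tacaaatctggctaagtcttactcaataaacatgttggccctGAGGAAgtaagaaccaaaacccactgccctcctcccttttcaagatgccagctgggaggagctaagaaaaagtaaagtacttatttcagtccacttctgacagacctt
Elane (chr10:79886162-79886311, plus strand): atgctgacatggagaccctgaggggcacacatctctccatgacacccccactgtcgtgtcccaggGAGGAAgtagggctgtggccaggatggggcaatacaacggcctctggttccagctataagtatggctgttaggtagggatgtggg
Mmp8 (chr9:7558279-7558428, plus strand): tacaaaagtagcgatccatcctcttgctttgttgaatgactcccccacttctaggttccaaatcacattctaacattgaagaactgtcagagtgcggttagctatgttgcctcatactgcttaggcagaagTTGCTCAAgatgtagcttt
Cd177 (chr7:24760312-24760461, minus strand): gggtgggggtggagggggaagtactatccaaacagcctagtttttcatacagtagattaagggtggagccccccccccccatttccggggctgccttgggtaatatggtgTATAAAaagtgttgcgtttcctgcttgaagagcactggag

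The longest run shared by the windows of Ly6c1 and Ly6c2 was 20 of 150 bases, and that of Ly6c1 and Ly6g, which was higher in cluster 7, was 37 bases. GAGGAA stood in the windows of Ly6c2 and Elane, TTNNGCAA in that of Mmp8, and TATAAA in those of Ly6c1 and Cd177. Among all 27025 promoter windows of this length, 14.4% held GAGGAA, 5.48% held TTNNGCAA and 8.08% held TATAAA. For the 397 genes higher in cluster 7 that had a window, the shares were 22.7%, 8.31% and 7.30%, and for the 132 genes higher in cluster 1 they were 9.85%, 3.03% and 6.82%. Of the 12 genes of the neutrophil list that were higher in cluster 7 and had a window, 4 held GAGGAA, 4 held TTNNGCAA and 1 held TATAAA, while Camp, Chil3, Ctsg and Mpo held none of the 3. By the gene positions that come with the counts, the windows of Camp, Lcn2, Mpo and Prtn3 lie wholly within the gene and not before it. Those of Fcnb, Ltf, Ly6g and Ngp overlap the gene in part. Of all 7661 genes that passed the filter and had a window, 12.8% held GAGGAA, 4.39% held TTNNGCAA and 3.55% held TATAAA. A match of letters is a description and not a binding site.

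Of the 12 named genes with the most negative log2 ratios, 3 belong to the neutrophil list (Ltf, Chil3 and Mmp8). Cd177, a neutrophil surface protein, had 12.6 RPKM in cluster 1 and 205.4 RPKM in cluster 7, with a log2 ratio of -3.92 (-4.01 to -3.84). It was lowest in cluster 1 and highest in cluster 7 among all 7 libraries, the other 5 lying between 19.5 and 119.6 RPKM. Mmp9, a gelatinase stored in neutrophil granules and also made by osteoclasts, had 9.82 and 116.4 RPKM, a log2 ratio of -3.44 (-3.52 to -3.36). Ltf, the iron-binding lactoferrin of secondary granules, had 122.5 RPKM in cluster 1 and 1060.1 RPKM in cluster 7, against 139.2 to 664.0 RPKM in the other libraries. Chil3, a chitinase-like protein of myeloid cells, had 142.7 and 1152.7 RPKM, and was likewise lowest in cluster 1 and highest in cluster 7. Among the 12 lowest ratios were also Chil1, which was highest in cluster 4 (5.54 and 64.0 RPKM, against 167.1 RPKM), the bone and cartilage genes Spp1 and Chad, Itgb2l and Itgb2, integrin subunits of leukocytes (3.93 and 37.5 RPKM, 8.53 and 67.9 RPKM), the complement receptor C5ar1 (6.24 and 54.9 RPKM), the granule protein Olfm4 (0.652 and 11.0 RPKM) and the collagenase Mmp8 (26.6 and 173.0 RPKM).

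All 16 genes of the neutrophil list passed the filter, 13 were more than 2-fold higher in cluster 7 (5.47% of all genes) and none was higher in cluster 1 (3.35%), with a median log2 ratio of -2.07 against -0.08 over all genes. Scaled by total count, 10 of the 16 were higher in cluster 7, since Camp, Cebpe and Prtn3 came to log2 ratios of -0.99, -0.99 and -0.98. Of these 13 genes, cluster 7 was the highest of the 7 libraries for 10 and cluster 1 the lowest for 10. Genes of primary and of secondary granules were among them. The primary granule genes Mpo, a myeloperoxidase, and Elane, neutrophil elastase, had 56.2 and 78.6 RPKM in cluster 1 against 353.8 and 428.7 RPKM in cluster 7. Cluster 6 had nearly the same levels as cluster 7, with 350.1 and 444.6 RPKM. Ngp, a cathelin-like protein of secondary granules, had 1142.1 RPKM in cluster 1 and 5760.8 RPKM in cluster 7, a log2 ratio of -2.33 (-2.35 to -2.32). The 3 listed genes that stayed within 2-fold were S100a8, S100a9 and Retnlg, which are abundant in mature neutrophils, with log2 ratios of -0.84, -0.73 and -0.83. S100a9, the most abundant gene of the list, had 5600.8 RPKM in cluster 1 and 9273.9 RPKM in cluster 7, whereas it was highest in cluster 5, at 13695.2 RPKM. The 16 genes summed to 12955.1 RPKM in cluster 1 and 29316.3 RPKM in cluster 7, between 11464.2 RPKM in cluster 3 and 34693.9 RPKM in cluster 5. The list took 1.15% of all counts in cluster 1 (95% Wilson interval 1.14 to 1.15%) and 3.13% in cluster 7 (3.13 to 3.14%), and 4.43% in the input library. In such bulk libraries, fewer cells of a type and less RNA per cell cannot be told apart, and the part that neutrophil RNA had in the other differences was not tested.

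The lists of other blood lineages are read against the 3.35% of all genes that were higher in cluster 1 and the 5.47% higher in cluster 7, several of their counts being of single genes. The summed level of the 14 macrophage genes was 716.7 RPKM in cluster 1 and 3437.2 RPKM in cluster 7, the highest of the 7 libraries, of which Lyz2, a lysozyme shared with neutrophils, made up 691.3 and 3356.5 RPKM. Of the 8 that passed, 5 were higher in cluster 7, including Csf1r, the receptor of M-CSF (2.26 and 13.5 RPKM), Cd68 (5.90 and 29.1 RPKM) and Adgre1, which encodes F4/80 (0.627 and 4.07 RPKM). The resident macrophage genes Marco, Siglec1 and Vsig4 had at most 41 counts in either library. Of the 10 B lineage genes that passed, out of 14 listed, 2 were higher in cluster 7, namely Cd79a (13.9 and 35.8 RPKM) and Jchain (1.18 and 6.41 RPKM). The most abundant, Ighm, had 79.2 and 151.5 RPKM, and the B lineage list summed to 153.0 RPKM in cluster 1 and 276.9 RPKM in cluster 7. Immunoglobulin variable segments, a group outside this list defined after the values were seen, had a median log2 ratio of -1.96. Of the 13 that passed, 12 were higher in cluster 7 and 1 in cluster 1. Most of the 12 had less than 2 RPKM in cluster 1 and passed through cluster 7 alone. The 1 higher in cluster 1 passed through cluster 1 alone, so that the filter fixed these directions in part. Of the 13 T and NK genes, 4 passed and 3 were higher in cluster 7. The most abundant of these, Nkg7, had 23.2 and 54.7 RPKM, and the list summed to 28.8 and 67.7 RPKM. Cd3e had 12 and 22 counts. One of the 3, Trbc2, at a log2 ratio of -1.02, came to 2-fold or less (-1.0) with DESeq2 size factors. On the other side, of 4 megakaryocyte genes that passed, out of 8, the platelet chemokines Pf4 (38.5 and 15.2 RPKM) and Ppbp (4.84 and 1.5 RPKM) were higher in cluster 1, where the list summed to 53.5 RPKM against 23.4 RPKM. The haemoglobin gene Hba-a2 was the only 1 of 6 erythroid genes that passed to differ, with 2131.2 RPKM in cluster 1 and 861.6 RPKM in cluster 7. Its near-identical copy Hba-a1, the most abundant of the list, had 4678.0 and 2427.0 RPKM, and the 9 matched erythroid genes summed to 6863.4 and 3350.5 RPKM. Of 18 endothelial genes, 6 passed and Tek, the angiopoietin receptor, was higher in cluster 1 (4.43 and 1.41 RPKM), while Plvap, the most abundant, had 12.3 and 10.7 RPKM and Cdh5 had 88 and 92 counts. The endothelial list summed to 36.5 RPKM in cluster 1 and 31.2 RPKM in cluster 7.

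**Figure D3:**
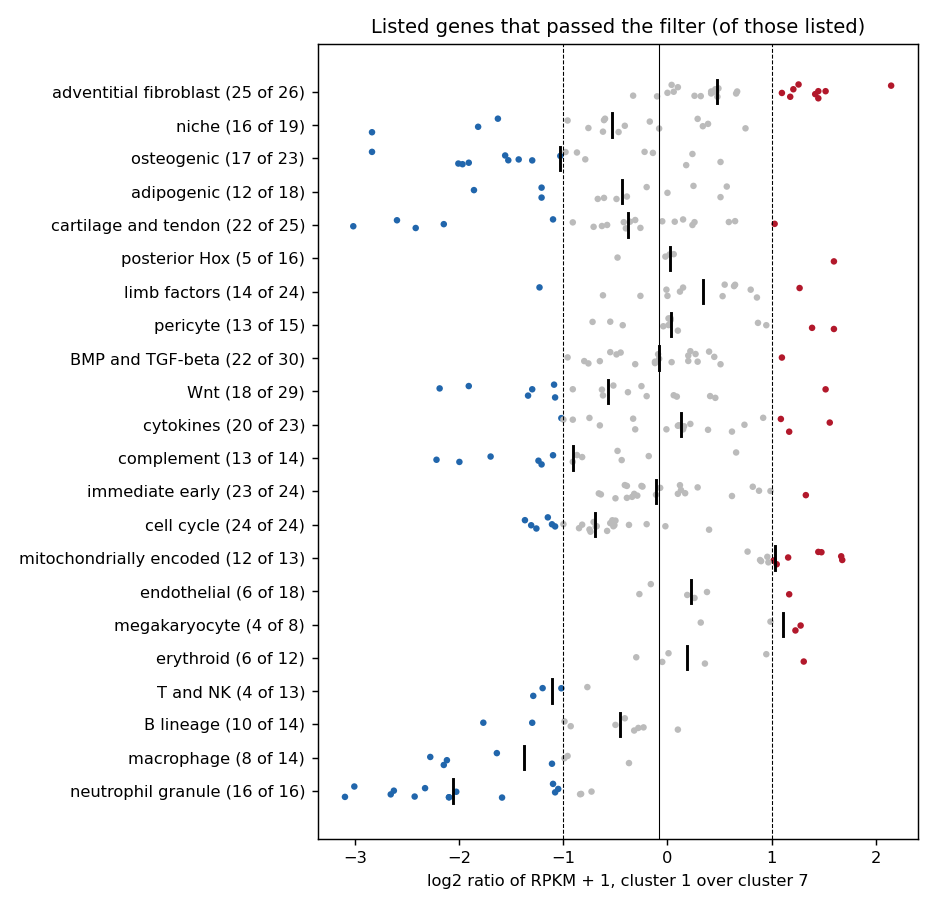
Log2 ratio of RPKM + 1, cluster 1 over cluster 7, of the genes of each list that passed the filter, 1 point per gene, red and blue being more than 2-fold higher in cluster 1 and cluster 7, with a black bar at the median of each list and a vertical line at the median of all genes (-0.08). The neutrophil list lies entirely below 0, with a median of -2.07, while the adventitial fibroblast and mitochondrially encoded lists lie mostly above 0.

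Genes of bone and cartilage were also found on the side of cluster 7. Of 23 osteogenic genes, 17 passed, 9 were more than 2-fold higher in cluster 7 (5.47% of all genes) and none in cluster 1 (3.35%), with a median log2 ratio of -1.03. Spp1, or osteopontin, an acidic matrix protein also made by macrophages, had 161.8 RPKM in cluster 1 and 1165.8 RPKM in cluster 7, a log2 ratio of -2.84 (-2.87 to -2.81). Cluster 7 was not high for Spp1 among the sorted libraries, the other 5 ranging from 1057.6 to 3210.2 RPKM, whereas cluster 1 was the lowest. The same held for 8 of the 9 osteogenic genes, of which cluster 1 had the lowest level of the 7 libraries. Ibsp, bone sialoprotein, had 164.1 and 664.7 RPKM, and Dmp1, a matrix protein of osteocytes, had 2.93 and 9.60 RPKM. Both are neighbours of Spp1 on chromosome 5, where Dmp1, Ibsp and Spp1 lie at chr5:104202613-104214102, chr5:104299171-104311469 and chr5:104435118-104441050 on the plus strand. Alkaline phosphatase Alpl had 22.1 RPKM in cluster 1 and 89.3 RPKM in cluster 7, and the osteoblast transcription factors Runx2 (1.71 and 4.51 RPKM), Sp7 (1.90 and 7.56 RPKM) and Dlx5 (1.07 and 6.76 RPKM) differed in the same direction. Runx2, at a log2 ratio of -1.03, came to 2-fold or less by total count, DESeq2 size factors and equal depth (-1.0 to -0.98). Tnfsf11, which encodes the osteoclast-forming ligand RANKL, had 4.10 and 13.7 RPKM and was the only gene of the 9 that was highest in cluster 7. The main chains of type I collagen stayed within 2-fold, Col1a1 with 3319.7 and 2330.3 RPKM and Col1a2 with 2244.6 and 1899.8 RPKM, as did Bglap, which encodes osteocalcin (212 and 247.5 RPKM). Sost, the Wnt inhibitor of mature osteocytes, had 0 counts in both libraries, which allows up to 3 counts in each.

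Of 25 cartilage and tendon genes, 22 passed, 5 were higher in cluster 7 and 1 in cluster 1, against 5.47% and 3.35% of all genes, with a median log2 ratio of -0.38. Chad, a leucine-rich protein of cartilage, had 100.3 RPKM in cluster 1 and 820.1 RPKM in cluster 7, a log2 ratio of -3.02 (-3.06 to -2.98). The other 5 libraries had 506.2 to 3217.6 RPKM of Chad, all above cluster 1. Comp, a matrix protein of cartilage and tendon (267.3 and 1190.6 RPKM), Cilp2 (28.8 and 158.6 RPKM) and the secreted Cytl1 (12.9 and 83.4 RPKM) were also lowest of the 7 libraries in cluster 1. Matn3, a matrilin of cartilage, was the other gene higher in cluster 7 (8.31 and 19.0 RPKM). The chondrocyte genes Sox9, Col2a1 and Acan stayed within 2-fold, since Sox9 had 45.7 and 41.2 RPKM, Col2a1 159.9 and 165.8 RPKM and Acan 7.12 and 11.5 RPKM. So did the tendon genes Scx (34.4 and 32.8 RPKM) and Tnmd (190.9 and 161.6 RPKM). Kera, a proteoglycan of tendon and cornea, was higher in cluster 1, with 232.1 RPKM in cluster 1, 113.4 RPKM in cluster 7 and at most 63.0 RPKM elsewhere.

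**Figure D4:**
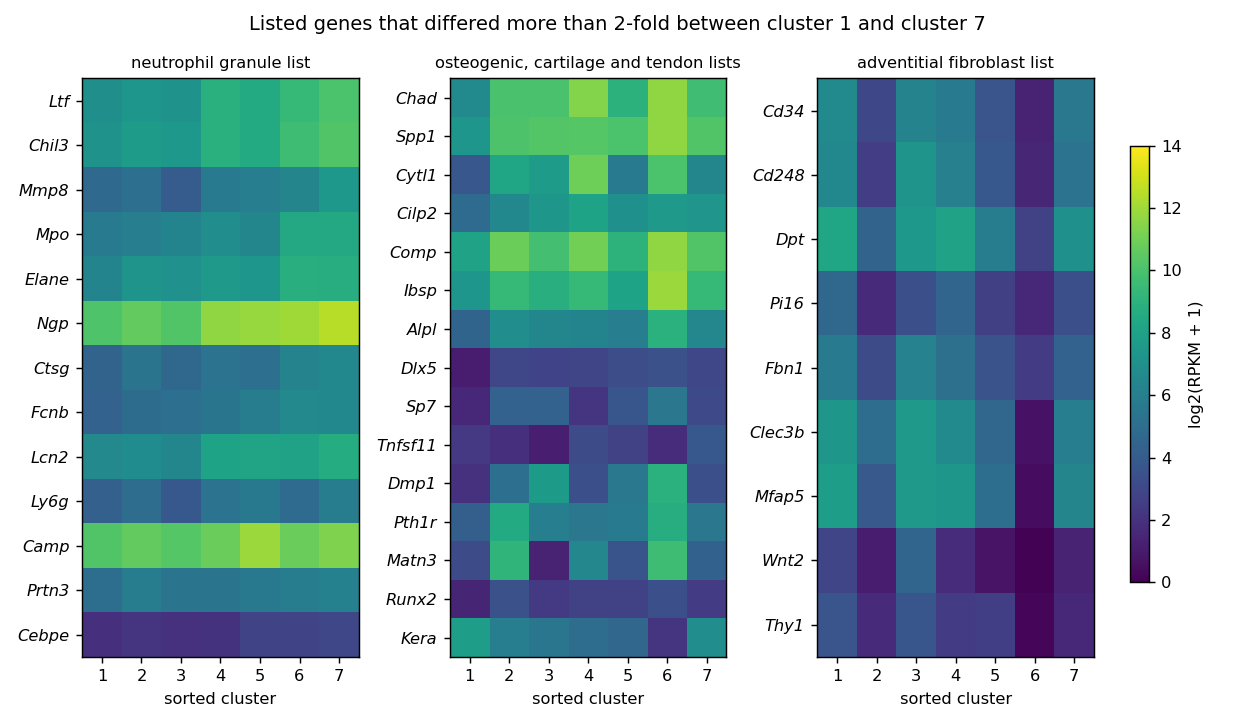
Level as log2(RPKM + 1), by colour, in the 7 sorted libraries (columns) of the genes that differed more than 2-fold between cluster 1 and cluster 7 in the neutrophil list, the osteogenic, cartilage and tendon lists and the adventitial fibroblast list (rows, ordered by log2 ratio). Of the 13 neutrophil genes, 10 are highest in cluster 7, and of the 14 bone, cartilage and tendon genes higher in cluster 7, 12 are lowest in cluster 1.

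In the lists of the supportive niche, of fat and of complement, 3 of 16, 3 of 12 and 6 of 13 genes that passed were higher in cluster 7 and none in cluster 1, against 5.47% and 3.35% of all genes. Of 16 niche genes that passed, out of 19, Spp1, Hp and Lepr were higher in cluster 7. Lepr, the leptin receptor that marks the perisinusoidal stroma, had 2.92 and 11.1 RPKM, and Hp, haptoglobin, which neutrophils also make, had 62.3 and 222.3 RPKM. The stem cell factors Cxcl12 (27.9 and 43.5 RPKM) and Kitl (4.47 and 3.34 RPKM) stayed within 2-fold. Of the 12 adipogenic genes that passed, out of 18, 3 were higher in cluster 7, namely Dgat2 (9.95 and 38.7 RPKM), Apoe (77.0 and 179.7 RPKM) and Cfd (0.710 and 2.96 RPKM), while Adipoq had 2.77 and 3.93 RPKM and Pparg did not pass (109 and 120 counts). Of 13 complement genes that passed, out of 14, 6 were higher in cluster 7 and none in cluster 1, with a median log2 ratio of -0.91. Clu, the chaperone clusterin, had 63.5 RPKM in cluster 1 and 256.6 RPKM in cluster 7, cluster 1 being the lowest of the 7 libraries. C3 (25.2 and 60.7 RPKM), C7 (9.36 and 32.6 RPKM) and C2 (3.91 and 9.54 RPKM) differed the same way. Among 8 ectonucleotidase genes that passed, out of 12, Alpl and Nt5e, which encodes CD73 (7.36 and 19.8 RPKM), were higher in cluster 7.

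Of the Wnt list, 6 of 18 genes that passed, out of 29, were higher in cluster 7 and 1 in cluster 1, where all genes gave 5.47% and 3.35%. The ligands differed in opposite directions, Wnt2 having 6.62 and 1.67 RPKM and Wnt5b 2.31 and 14.1 RPKM in cluster 1 and cluster 7. The ligand Wnt16 (0.466 and 2.11 RPKM) and the secreted or intracellular inhibitors Wif1 (19.7 and 76.9 RPKM), Frzb (1.24 and 4.66 RPKM), Notum (1.66 and 5.54 RPKM) and Nkd2 (3.19 and 7.89 RPKM) made up the rest. Cluster 1 was the lowest of the 7 libraries for 5 of these 6 genes. Of 22 BMP and TGF-beta genes that passed, out of 30, only Fstl1, a follistatin-like glycoprotein, differed (8.82% of all genes did), with 332.9 RPKM in cluster 1 and 155.2 RPKM in cluster 7, and the list had a median log2 ratio of -0.08, that of all genes. The targets Id1 (74.2 and 54.2 RPKM), Id2 (135.5 and 185.1 RPKM) and Id3 (483.9 and 510.4 RPKM) stayed within 2-fold.

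Genes of adventitial fibroblasts, the cells of the outer vessel wall, were higher in cluster 1 in part. Of 26 listed genes, 25 passed, 9 were more than 2-fold higher in cluster 1 (3.35% of all genes) and none in cluster 7 (5.47%), with a median log2 ratio of 0.48. Thy1, a surface glycoprotein anchored like Sca-1, had 12 RPKM in cluster 1 and 1.94 RPKM in cluster 7, a log2 ratio of 2.15 (1.99 to 2.30), and cluster 3 alone was higher, at 12.5 RPKM. The microfibril genes Mfap5 (221.5 and 80.5 RPKM) and Fbn1 (55.1 and 20 RPKM), the plasminogen-binding Clec3b (171.1 and 61.8 RPKM), the matrix protein Dpt (299.4 and 129.2 RPKM) and the progenitor marker Pi16 (25 and 9.88 RPKM) had log2 ratios between 1.21 and 1.45. Cd34, a sialomucin of progenitors (102.0 and 47.0 RPKM), Cd248 (91.8 and 40 RPKM) and Wnt2 completed the 9. For 4 of these 9 genes cluster 1 was the highest of the 7 libraries, and cluster 7 was the lowest for none, the levels in cluster 6 being lower still (0.379 RPKM of Mfap5). Cluster 3 was the highest for Thy1, Fbn1, Clec3b, Cd248 and Wnt2. The 26 genes summed to 3737.6 RPKM in cluster 1 and 2808.3 RPKM in cluster 7, against 7285.1 RPKM in cluster 3 and 3651.9 RPKM in cluster 4. Several of the most abundant members were alike, such as Igfbp6 (1136.8 and 1059.1 RPKM), Sfrp4 (327.7 and 313.2 RPKM) and Gfpt2 (133.9 and 133.8 RPKM).

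Other single genes led the side of cluster 1. Atf5, a stress-responsive transcription factor, had 26.2 RPKM in cluster 1 and 1.95 RPKM in cluster 7, against 1.63 to 10.1 RPKM elsewhere. Its log2 ratio of 3.20 (3.03 to 3.37) was the largest of all named genes. This rank rests on the pseudocount of 1, since the fold of RPKM itself was 13.4 for Atf5 and 60.7 for Spink5. Hmcn2, a large extracellular hemicentin, had 20.2 and 2.66 RPKM, with a log2 ratio of 2.54 (2.48 to 2.60), and no other library passed 8.46 RPKM. Scg3, a granin of secretory granules, had 18.6 RPKM in cluster 1, 3.39 RPKM in cluster 7 and 20 RPKM in cluster 3. Malat1, a nuclear noncoding RNA, had 1265.1 RPKM in cluster 1 and 309.3 RPKM in cluster 7, and the other libraries ranged from 199.5 to 1277.1 RPKM. These long transcripts were joined by short ones, namely Rps12, the annotated microRNA loci mmu-mir-2134-1, mmu-mir-2134-2, Mir703 and Mir6236, the mitochondrial tRNA genes mt-Tc and mt-Tn, the pseudogene Rps12-ps19 and the short RNA CT009594.1. The first of these loci, mmu-mir-2134-1, had 158 counts in cluster 1 and 26 in cluster 7, or 97.3 and 12.5 RPKM, and 3447.3 RPKM in cluster 5. The named microRNA loci measure reads counted at loci of 56 to 123 bases in a library of fragmented long RNA, and not mature microRNAs.

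Hox genes of the posterior groups take part in patterning the limb from its base to the digits. Of 16 listed, 5 passed the filter, and Hoxd13 alone of these differed more than 2-fold (8.82% of all genes did), while Hoxa10, Hoxa11, Hoxc9 and Hoxc10 had log2 ratios between -0.48 and 0.06. Below the filter, Hoxa13 had 120 counts in cluster 1 and 31 in cluster 7, Hoxc11 72 and 23, Hoxd11 58 and 17, Hoxd12 27 and 5, Hoxc13 7 and 1, Hoxd10 31 and 29, Hoxa9 239 and 374, Hoxd9 43 and 97 and Hoxb9 1 and 7, while Hoxb13 and Hoxc12 had 0 counts in both. These counts are not scaled to the totals of the libraries. Of anterior Hox genes, 1 of 23 listed passed, Hoxd8, with 5.43 and 3.77 RPKM. Among 14 limb factors that passed, out of 24, 1 was higher in each cluster, against 3.35% of all genes in cluster 1 and 5.47% in cluster 7. Isl1, a factor of the hindlimb field, was higher in cluster 1 (7.79 and 2.63 RPKM), where it was the highest of the 7 libraries, and Pitx1, which sets hindlimb identity, was higher in cluster 7 (1.18 and 4.12 RPKM). Tbx4, of the hindlimb, stayed within 2-fold (4 and 5 RPKM), as did Prrx1 (10.9 and 7.26 RPKM), while Tbx5, of the forelimb, had 202 and 85 counts and En1, a ventral limb factor, had 90 and 13 counts without passing.

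Smaller groups divided between the clusters, where 3.35% of all genes were higher in cluster 1 and 5.47% in cluster 7. Of 20 cytokine genes that passed, out of 23, Ccl7 (521.2 and 244.9 RPKM), Ccl8 (24.2 and 7.56 RPKM) and Tslp (3.35 and 0.930 RPKM) were higher in cluster 1 and Cxcl14 (51.6 and 105.6 RPKM, 2-fold or less by total count) in cluster 7, while the neutrophil attractant Cxcl1, the most abundant, had 571.9 and 490.1 RPKM. Of 13 pericyte genes that passed, out of 15, Rgs5 (11.9 and 3.95 RPKM) and Higd1b (3.30 and 0.415 RPKM) were higher in cluster 1. Rgcc, the most abundant, stayed within 2-fold, as did the smooth muscle actin Acta2 (51.5 and 76.0 RPKM). The pericyte list had a median log2 ratio of 0.03 and summed to 472.6 RPKM in cluster 1 and 658.6 RPKM in cluster 7. Of 23 immediate early genes that passed, out of 24, only Klf4 differed (254.1 and 100.3 RPKM), against 8.82% of all genes, and Fos, the most abundant, had 2162.1 and 2338.0 RPKM. Of 24 cell cycle genes, all of which passed, 6 were higher in cluster 7 and none in cluster 1, with a median log2 ratio of -0.70. These were the replication genes Mcm2, Mcm4, Mcm5, Mcm6 and Rrm2 and the mitotic kinase Aurkb, with log2 ratios from -1.08 to -1.37, while Mki67 had 6.77 and 4.91 RPKM and Top2a 6.16 and 9.21 RPKM. Of 16 interferon-induced genes that passed, out of 20, Ifi27l2a was higher in cluster 1 (112.1 and 47.3 RPKM) and Ifit1 (2.05 and 6.01 RPKM) and Irf7 (3.81 and 8.76 RPKM, 2-fold or less by total count) in cluster 7. No listed gene of Schwann cells or skeletal muscle differed more than 2-fold, with 2 of 8 and 3 of 10 passing, S100b (7.69 and 7.54 RPKM) and Acta1 (3.21 and 1.78 RPKM) being the most abundant, and list totals of 10.6 and 10.8 RPKM and of 10.8 and 5.92 RPKM.

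The log2 ratio went with the exon length of the gene. Of the 72 genes of up to 300 bases, 45.8% were higher in cluster 1 and none in cluster 7, with a median log2 ratio of 0.94. The median was 0.57 over the 274 genes of 300 to 600 bases, 0.29 over the 414 genes of 600 to 1000 bases, 0.01 over the 1454 genes of 1000 to 2000 bases and between -0.17 and -0.07 in longer genes. The 339 genes higher in cluster 1 had a median exon length of 1133 bases, against 2843 bases for the 553 genes higher in cluster 7 and 3658.5 bases for all genes. With genes of over 1000 bases only, a setting chosen after the values were seen, 175 genes were higher in cluster 1 and 502 in cluster 7. All 12 mitochondrially encoded protein genes that passed, out of 13, had positive log2 ratios with a median of 1.04, and 7 were more than 2-fold higher in cluster 1, against 3.35% of all genes. The most abundant, mt-Cytb, had 2324.9 RPKM in cluster 1 and 1243.6 RPKM in cluster 7, while mt-Atp8 had 65.1 and 19.7 RPKM and mt-Co2 had 65.7 and 19.8 RPKM, cluster 7 being the lowest of the 7 libraries for both. These genes took 1.15% of counts in cluster 1, 0.558% in cluster 7 and 3.06% in cluster 5. Of 80 genes of cytosolic ribosomal proteins, a group defined after the values were seen, 77 had positive log2 ratios, 19 were higher in cluster 1 (3.35% of all genes) and none in cluster 7 (5.47%), Rps12 having 461.7 and 105.8 RPKM. Among 55 ribosomal protein pseudogenes, whose reads may come from the parent genes, 22 were higher in cluster 1, against the same 3.35%. With Lars2, mmu-mir-689-2 and Rn18s-rs5 left out, the total count fell from 24205863 to 23890963 in cluster 1. In cluster 7 it fell from 33238133 to 33166527. The part that RNA quality or fragment size had in these values was not tested. Spink5, Hmcn2, Atf5, Thy1, Malat1, Ly6a and Hoxd13 all have exon lengths above 1000 bases, as do Ltf, Mpo, Spp1 and Chad. Other named genes are shorter, among them Rps12 (476 bases), Ly6a2 (798 bases), Ly6g (942 bases) and Clec3b (992 bases).

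**Figure D5:**
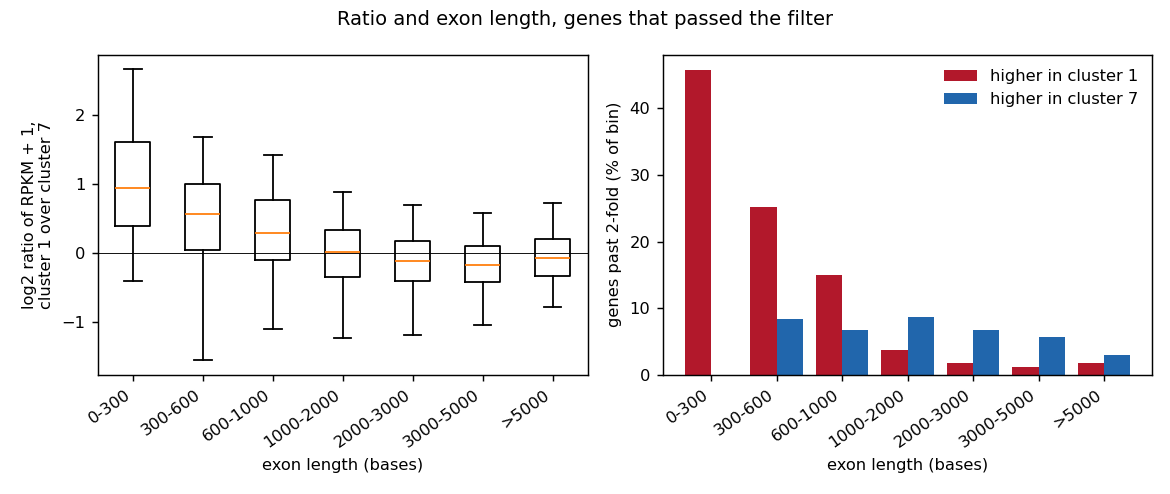
Log2 ratio of RPKM + 1, cluster 1 over cluster 7, by exon length of the gene (left; boxes are quartiles with the median in orange, whiskers the 5th and 95th percentiles) and the percentage of genes in each bin that were more than 2-fold higher in cluster 1 (red) or cluster 7 (blue; right). The share higher in cluster 1 is 45.8% in genes of up to 300 bases and lowest, at 1.14%, in genes of 3000 to 5000 bases, with 1.77% in longer ones.

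The genes that differed were not all particular to this pair. Of the 339 genes higher in cluster 1, 106 (31.3%) had their highest level of the 7 sorted libraries in cluster 1, 96 each in clusters 2 and 5, 37 in cluster 3 and 1 in cluster 4. Of the 553 genes higher in cluster 7, 380 (68.7%) had their highest level in cluster 7, 111 in cluster 6 and 41 in cluster 4. Spink5, Hoxd13, Atf5 and Hmcn2 belong to the 106, and Cd177, Mmp9, Ltf and Lyz2 to the 380. Over all 10114 genes, cluster 1 was the highest library for 9.76% and cluster 7 for 19.5%, but the genes that differed were chosen as higher in 1 of the 2, which raises their shares by construction. For the genes higher in cluster 1, the lowest library was cluster 6 for 161 and cluster 7 for 153, and for those higher in cluster 7 it was cluster 3 for 233 and cluster 1 for 156.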

How the data were processed

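RNA-seq of sorted bone marrow stromal clusters was analysed, with 1 library per cluster. Per the paper, reads were trimmed of low-quality bases, TopHat2 aligned them to mm9, and Partek Flow gave RPKM. The authors deposited raw counts per Ensembl gene with exon positions and exon length. These positions follow GRCm38 (96.2% of 23289 gene starts within 10 kb of RefSeq). The counting tool and strandedness are not given in the sources used here. The labels and the paper differ in the amount of RNA per library.

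Counts were scaled by TMM factors over the 7 sorted libraries (edgeR 4.0.16) and divided by exon length to give RPKM. Genes with RPKM above 2 and at least 50 counts in at least 1 of the 2 libraries were kept, and ratios use a pseudocount of 1, which understates differences of low genes. Gene symbols came from a name table (29840 genes), RefSeq synonyms (2624) and GRCm38 positions (5305). Promoters are RefSeq, GRCm38.p6, 1 window per symbol. edgeR and DESeq2 1.42.0 gave scaling factors only, and no model was fitted. Shares of counts have Wilson intervals. Total counts ranged from 12833648 to 33238133 per sorted library, and a count of 0 allows up to 3 counts.

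Named genes were the 12 highest and 12 lowest log2 ratios with a symbol, the 10 highest and 10 lowest with RPKM above 50, Ly6a, Spink5 and Hoxd13, and members of the lists. Immunoglobulin and T cell receptor segments, predicted genes, Lars2, mmu-mir-689-2 and Rn18s-rs5 were counted but not ranked. The members and lists were chosen with earlier results of these data known. The scripts were tested on simulated data with counting error only. Alternatives comprised other scalings, filters, pseudocounts, thresholds and equal depth. Scripts ran under R 4.3.3 and Python 3.11.15, with scipy 1.17.1, pandas 2.3.3, matplotlib 3.10.9 and numpy 2.4.6.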

Additional observations from a re-analysis of the deposited data

How the results depend on the processing

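No paired analysis was possible because there was 1 library for each cluster. For the same reason no replicate could be left out, and no setting shows how far animals or sorts differ. The number of genes higher in cluster 1 was 339 and that higher in cluster 7 was 553. The first was 526 with a pseudocount of 0.1, 222 with RPKM above 2 in both libraries, 223 with at least 200 counts, 576 with no filter and 175 with an exon length above 1000 bases, the last chosen after the values were seen. A 4-fold threshold left 28 and 75 genes and a 1.5-fold threshold, also chosen after the values were seen, gave 1026 and 1405. The second number stayed within 1.5 times 553 in the other settings tried. The share of differing genes that were higher in cluster 1 was 38.0%, against 49.2% by total count, 41.8% with a pseudocount of 0.1, 44.1% with no minimum count, 30.1% with at least 200 counts, 47.3% with no filter and 25.8% above 1000 bases, so that cluster 7 had more such genes in each setting. The median log2 ratio of -0.08 became 0.02 by total count, -0.07 by TMM over 8 libraries, -0.05 with DESeq2 size factors, -0.09 with a pseudocount of 0.1, -0.10 with RPKM above 5, with 200 counts and above 1000 bases, -0.06 with no RPKM filter, -0.07 with no minimum count and 0.01 with no filter. The Pearson r of 0.932 became 0.910 with RPKM above 5, 0.939 with RPKM above 2 in both libraries and with 200 counts, 0.954 with no RPKM filter, 0.925 with no minimum count, 0.969 with no filter and 0.938 above 1000 bases.

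Of the 122 named genes past 2-fold, none changed direction in any setting whose filter it passed, and 7 came to 2-fold or less in at least 1 such setting. A gene that failed the filter of a setting was not compared in that setting. Camp, Cebpe and Prtn3 did so by total count, at log2 ratios of -0.99, -0.99 and -0.98, so that 10 of the 16 neutrophil genes were then higher in cluster 7. Cxcl14, Irf7, Runx2 and Trbc2 did so under DESeq2 size factors and, Trbc2 aside, by total count, and Irf7 and Runx2 also at equal depth, with values from -1.0 to -0.92.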

Other observations

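Further groups were defined after their values were seen and are given as values, beside the 3.35% of all genes that were higher in cluster 1 and the 5.47% higher in cluster 7. Of 6 MHC class II genes that passed the filter, 4 were more than 2-fold higher in cluster 7, among them H2-Ab1, a chain of the antigen-presenting molecule of B cells and macrophages, with 27.1 RPKM in cluster 1 and 73.1 RPKM in cluster 7. Of 11 matrix metalloproteinases, 6 were higher in cluster 7 and none in cluster 1. Besides the leukocyte enzymes Mmp8, Mmp9 and Mmp25, these were Mmp13, the collagenase of bone and cartilage (282.5 and 718.6 RPKM), Mmp3, or stromelysin (46.0 and 210.8 RPKM), and Mmp2 (345.6 and 733.9 RPKM). Of 18 integrin genes, 6 were higher in cluster 7, namely the leukocyte chains Itgal, Itgam, Itgb2, Itgb2l and Itgb7 and the collagen receptor chain Itga11 (14 and 34.7 RPKM), and Itgb3 was higher in cluster 1 (10.5 and 3.70 RPKM). Of 32 collagen genes, 1 was higher in cluster 1 (Col15a1, 30.5 and 13.9 RPKM) and 3 in cluster 7, led by Col12a1 (15 and 54.7 RPKM).

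At the imprinted Dlk1-Meg3 locus of chromosome 12, the noncoding RNAs Meg3 (12.1 and 2.43 RPKM) and Rian (2.73 and 0.815 RPKM), which are read from the maternal copy, were higher in cluster 1, and Dlk1, a Notch-related protein read from the paternal copy, was higher in cluster 7 (1.16 and 3.81 RPKM). The log2 ratio was 1.93 (1.87 to 1.99) for Meg3 and -1.15 (-1.29 to -1.01) for Dlk1. None of 75 genes named for mitochondrial ribosomal proteins, among them the pseudogene Mrpl23-ps1, differed more than 2-fold (8.82% of all genes did). Their median log2 ratio was 0.09, in contrast to 0.75 over the 80 genes of cytosolic ribosomal proteins. From these 80, the genes named as pseudogenes were kept apart.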
